A study of Mus musculus with 10 samples.

Results

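The homeobox gene Nkx2-3 and the small predicted RNA gene Gm22646 lie next to each other on mouse chromosome 19, and the differentially methylated regions (DMRs) nearest to them were examined CpG by CpG in non-endothelial stromal cells (SCs) of lymph nodes. Members were the DMRs whose nearest gene was Nkx2-3 or Gm22646 in the deposited DMR tables, which gave 6 of 2132 DMRs, 2 nearest to Nkx2-3 and 4 nearest to Gm22646. Of the 6, 3 were among the 806 DMRs between mesenteric lymph nodes (mLN) and peripheral lymph nodes (pLN) of specific pathogen-free (SPF) mice, 3 were among the 1293 of germ-free (GF) mice, and 0 were among the 17 and 16 DMRs between SPF and GF mice in mLN and pLN. Each GF DMR lay inside an SPF DMR, so the 6 DMRs formed 3 regions of 1602 in the whole series and held 100 of its 24182 CpGs. The DMRs had been called by the authors for a difference between mLN and pLN, so their values in the libraries used for the call are descriptions, and tests of location were made in the libraries of the other housing condition. Each region had been called in both housing conditions, so those libraries had also been used for a call in the same region. The tests are thus not fully independent of the choice of members.

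The SCs were sorted for gp38 (podoplanin) and against CD31, Ter119 and CD45 from adult BALB/c mice. Their age ranges overlapped between housing conditions but were not the same. The groups were 3 libraries of mLN from SPF mice (mLN SPF), 2 of mLN from GF mice (mLN GF), 3 of pLN from SPF mice (pLN SPF) and 2 of pLN from GF mice (pLN GF). The mLN drain the gut and the pLN the skin, and the source label of the pLN libraries also carries the word mesenteric, so the group was taken from their titles. The germ-free line had been set up elsewhere by caesarean section, so housing cannot be told apart from colony and facility, and 1 mLN GF and 1 pLN GF library had been left out by the authors as outliers. Methylation is the percentage of bisulfite reads that keep a C at a CpG; the number of reads behind each value is unknown here, and these bisulfite libraries carry no RNA values, so markers of cell identity were not checked here. In sorted bulk cells a shift in cell subsets and a shift in methylation per cell cannot be told apart.

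Nkx2-3 encodes a transcription factor of the NK2 homeobox family that is active in the mesenchyme of the gut, spleen and other lymphoid tissues, and it is known for its need in spleen and gut-associated lymphoid tissue and for the control of the vascular address molecule MAdCAM-1. Methylation of CpGs at promoters and enhancers is usually low where these elements are in use. Gm22646 is annotated only as a predicted miRNA gene, and its product has no established role.

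On GRCm38, Nkx2-3 spans chr19:43612325-43615892 on the plus strand and Gm22646 spans chr19:43622446-43622560 on the same strand. The first region, called the promoter region here, was chr19:43611021-43612199 with 36 CpGs, at -1304 to -126 bp from the start of Nkx2-3. The second, called the near downstream region, was chr19:43617458-43618640 with 18 CpGs, and began 1566 bp after the end of Nkx2-3. The third, called the far downstream region, was chr19:43618961-43620927 with 46 CpGs. The 2 downstream regions were assigned to Gm22646 because its start is the nearest one in the authors' annotation, although both lie between the 2 genes. All 3 regions were intergenic in GENCODE M21. In RefSeq, whose models here include predicted ones, 27 of the 36 CpGs of the promoter region lay in the long non-coding RNA gene Gm20467, which is on the minus strand and starts at -269 bp from the start of Nkx2-3, and 22 of them lay in its exons. Both downstream regions lay in an intron of the predicted long non-coding RNA gene Gm34922 of RefSeq. The start of Gm34922, 3860 bp after that of Nkx2-3, is nearer to the near downstream region than the start of Gm22646.

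The sequence of each region is shown where the methylation values below were read, from RefSeq GRCm38.p6 on the plus strand, 5′ to 3′, with the measured CpGs in capitals. The mice were BALB/c, whereas the reference comes from another strain. The first stretch is chr19:43611451-43611750, the 300 bases with the most CpGs in the GF DMR of the promoter region. The second, chr19:43612075-43612324, is the 250 bases directly before Nkx2-3 and has CpGs in lower case that were outside the DMR. The third, chr19:43617796-43617867, is a repeat in the near downstream region where a run of TG passes into a run of CG. The fourth, chr19:43618598-43618641, is the GF DMR of the near downstream region. The fifth, chr19:43620080-43620379, is the 300 bases with the most CpGs in the GF DMR of the far downstream region.
Promoter region: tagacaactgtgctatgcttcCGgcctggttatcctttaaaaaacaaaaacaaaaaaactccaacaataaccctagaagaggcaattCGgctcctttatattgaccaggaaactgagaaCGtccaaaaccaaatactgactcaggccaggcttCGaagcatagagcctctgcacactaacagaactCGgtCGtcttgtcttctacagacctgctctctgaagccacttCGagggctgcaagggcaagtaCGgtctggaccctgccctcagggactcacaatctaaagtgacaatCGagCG
Before Nkx2-3: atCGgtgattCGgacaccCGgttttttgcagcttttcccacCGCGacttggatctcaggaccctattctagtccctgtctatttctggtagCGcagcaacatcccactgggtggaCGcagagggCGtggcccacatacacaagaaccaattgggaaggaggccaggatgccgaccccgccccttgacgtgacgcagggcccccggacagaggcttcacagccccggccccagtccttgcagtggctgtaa
CG repeat: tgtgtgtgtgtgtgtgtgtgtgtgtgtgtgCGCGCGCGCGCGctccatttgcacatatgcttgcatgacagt
Near downstream region: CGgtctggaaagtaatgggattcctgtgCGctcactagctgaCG
Far downstream region: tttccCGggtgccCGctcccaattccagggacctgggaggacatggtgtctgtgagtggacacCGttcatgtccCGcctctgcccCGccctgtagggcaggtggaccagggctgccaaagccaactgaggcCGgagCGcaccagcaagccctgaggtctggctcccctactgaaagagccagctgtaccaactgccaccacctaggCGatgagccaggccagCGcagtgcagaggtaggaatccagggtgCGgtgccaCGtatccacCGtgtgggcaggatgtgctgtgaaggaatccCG

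Over its 10 CpGs, the first stretch had 3.79 to 12.0% methylation in the 5 mLN libraries and 38.0 to 57.8% in the 5 pLN libraries. The 8 measured CpGs of the second stretch had 0 to 7.81% in mLN and 1.79 to 7.29% in pLN, so these CpGs, at -248 to -126 bp, were almost unmethylated in both kinds of node. The 13 CpGs of the fifth stretch had 62.1 to 71.8% in mLN and 5.38 to 11.6% in pLN. The order of the nodes was thus opposite in the first and the fifth stretch, which lie on either side of the gene.

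The promoter region was less methylated in mLN than in pLN. Its mean methylation was 5.14, 4.52 and 6.98% in the 3 mLN SPF libraries and 40.4, 31.6 and 35.3% in the 3 pLN SPF libraries. It was 5.66 and 2.92% in the 2 mLN GF libraries and 34.9 and 36.2% in the 2 pLN GF libraries. Every mLN library lay below every pLN library, with 24.6 percentage points between the highest mLN and the lowest pLN value.

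The far downstream region had the reverse pattern. Its mean methylation was 70.2, 74.8 and 66.2% in mLN SPF and 17.7, 12.9 and 20.4% in pLN SPF. In GF mice it was 67.2 and 73.3% in mLN and 19.8 and 16.0% in pLN. Here every mLN library lay above every pLN library, and 45.7 points separated the groups.

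The near downstream region moved the same way with a wider spread. It had 69.6, 59.9 and 55.5% in mLN SPF and 24.3, 14.9 and 20.5% in pLN SPF. In GF mice it had 59.3 and 55.9% in mLN and 18.3 and 28.9% in pLN. The mLN and pLN libraries did not overlap, and the gap between them was 26.6 points.

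The opposite directions were present within each library. The far downstream region was more methylated than the promoter region by 59.2 to 70.3 points in the mLN SPF libraries and by 61.5 to 70.3 points in the mLN GF libraries. In pLN, the difference (far downstream minus promoter) ran from -22.6 to -14.8 points in SPF and from -20.1 to -15.1 points in GF mice. The mean over all CpGs inside DMRs ranged from 48.3 to 52.3% between libraries.

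**Figure D1:**
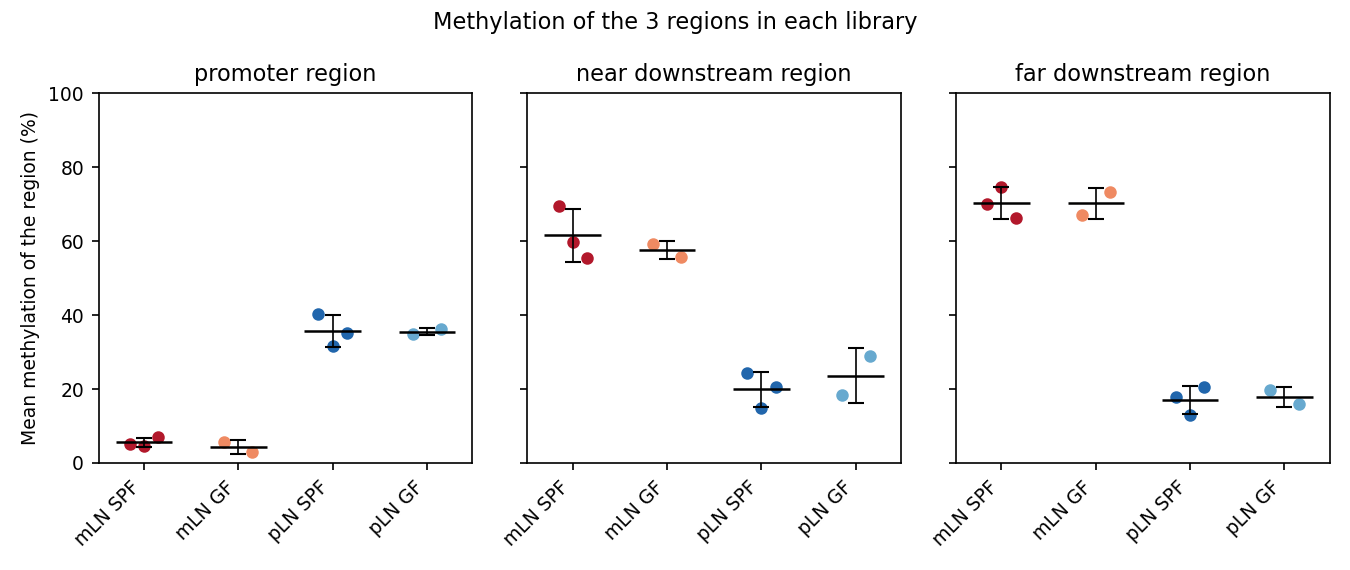
Mean methylation in percent of the promoter, near downstream and far downstream regions (panels), with 1 point per library, a line at the group mean and bars of 1 SD (n = 3 for SPF, n = 2 for GF). The mLN libraries sit below the pLN libraries in the promoter region and above them in both downstream regions, and the SPF and GF points of a node overlap or adjoin.

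Each DMR was tested for its location difference in libraries that were not used to call that DMR. The SPF DMRs were compared between mLN and pLN in the 4 GF libraries and the GF DMRs in the 6 SPF libraries (limma over the whole list, Benjamini-Hochberg adjusted p). All 6 member DMRs passed at an adjusted p of 0.05. Most DMRs of these lists passed, 89.0% for SPF DMRs in GF libraries and 82.4% for GF DMRs in SPF libraries, so a count of 6 of 6 is near the background.

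In the SPF DMR of the promoter region, GF libraries averaged 4.29% (SD 1.93, n = 2) for mLN and 35.6% (SD 0.890, n = 2) for pLN. The difference was -31.27 points (SE 4.04, 95% interval -41.2 to -21.3, limma adjusted p = 0.000848). The shorter GF DMR of this region, chr19:43611125-43611879 with 20 CpGs, averaged 5.65% (SD 1.80, n = 3) for mLN SPF and 50.6% (SD 7.21, n = 3) for pLN SPF. That difference was -44.91 points (SE 4.90, 95% interval -55.8 to -34.0, limma adjusted p = 3.32e-05). The GF DMR does not include the 14 CpGs of the region nearest to the gene.

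In the SPF DMR of the far downstream region, GF libraries averaged 70.2% (SD 4.29, n = 2) for mLN and 17.9% (SD 2.67, n = 2) for pLN, a difference of 52.31 points (SE 4.46, 95% interval 41.3 to 63.3, limma adjusted p = 0.0005). The GF DMR, chr19:43619620-43620927 with 37 CpGs, averaged 71.9% (SD 5.95, n = 3) for mLN SPF and 17.7% (SD 4.31, n = 3) for pLN SPF, a difference of 54.17 points (SE 4.88, 95% interval 43.3 to 65.0, limma adjusted p = 1.53e-05). These were large for their lists. By absolute difference in the libraries not used for the call, they ranked 67 of 806 and 65 of 1293, where the median DMR differed by 30.7 and 26.4 points. The promoter region ranked 389 of 806 with its SPF DMR and 154 of 1293 with its GF DMR.

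In the near downstream region, the SPF DMR averaged 57.6% (SD 2.41, n = 2) for mLN GF and 23.6% (SD 7.50, n = 2) for pLN GF, a difference of 33.99 points (SE 5.11, 95% interval 21.4 to 46.6, limma adjusted p = 0.00133). Its rank was 323 of 806. The GF DMR, chr19:43618598-43618640, held only 3 CpGs. Its SPF values were 67.3, 38.0 and 8.33% in mLN and 4.76, 6.67 and 8.89% in pLN, so 1 mLN library lay within the pLN range. The difference of 31.11 points had an SE of 11.4 and a 95% interval of 5.66 to 56.6 (limma adjusted p = 0.0271), and it did not pass without replicate 1 of mLN SPF (16.42 points, limma adjusted p = 0.095). It also did not pass without replicate 2 of mLN SPF (limma adjusted p = 0.0667), replicate 1 of pLN SPF (limma adjusted p = 0.0552) or replicate 3 of pLN SPF (limma adjusted p = 0.0537). The other 5 DMRs passed without any 1 library.

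Taken as single values, these comparisons cannot reach a p of 0.05 by exact permutation of the libraries. The smallest two-sided p is 0.33 for 2 against 2 libraries, which the 3 SPF DMRs had, and 0.1 for 3 against 3, which the GF DMRs of the promoter and far downstream regions had. The GF DMR of the near downstream region had an exact permutation p of 0.2.

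**Figure D2:**
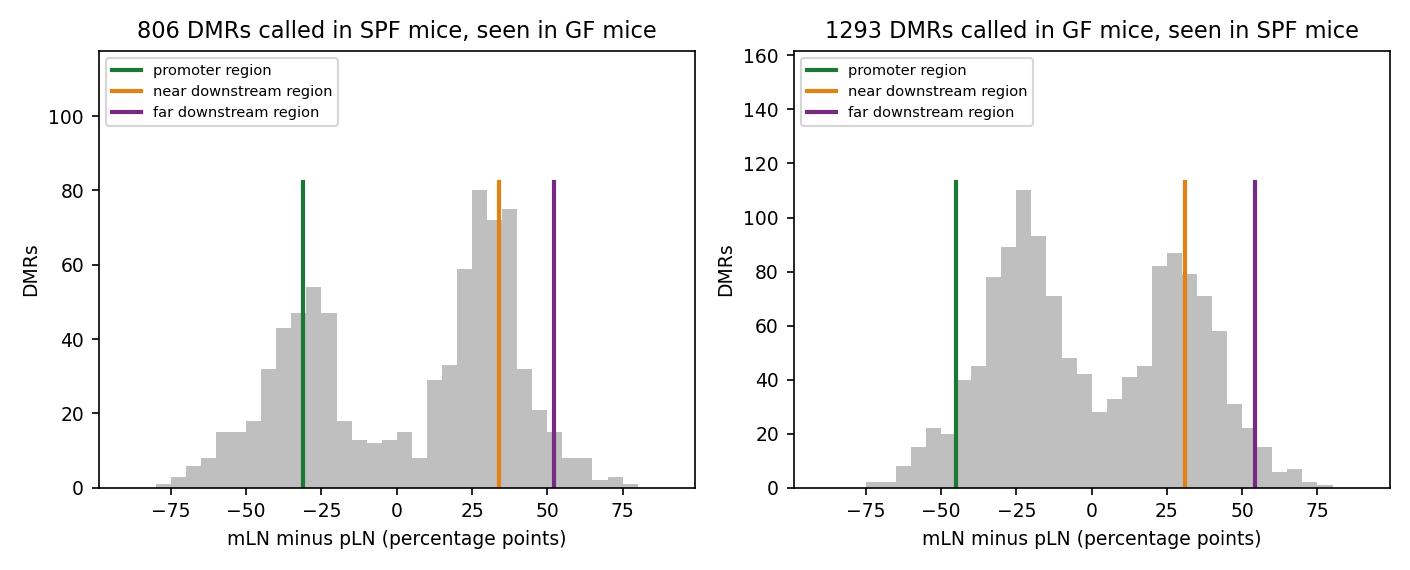
Histograms of the difference in methylation, mLN minus pLN in percentage points, over the 806 DMRs called in SPF mice as measured in GF mice (left) and the 1293 called in GF mice as measured in SPF mice (right), with a coloured line for each of the 6 member DMRs. The promoter region lies on the negative side and both downstream regions on the positive side, the far downstream region toward the end of the range.

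Within the promoter region the difference was on average smaller close to the gene. The 22 CpGs at -1304 to -446 bp from the start had lower means in mLN, with differences from -78.4 to -5.42 points in SPF and from -74.3 to -19.1 points in GF mice. The largest SPF difference was at -1118 bp (position 43611207), where the 5 mLN libraries had 0% and the 5 pLN libraries 63.6 to 100%. Not every CpG of this stretch followed its neighbours, and at -1059 and -1021 bp the pLN libraries ranged from 0 to 50% and from 0 to 62.5%. The 14 CpGs at -393 to -126 bp had 1.19 to 10.4% in mLN and 4.76 to 11.0% in pLN on average, and these ranges overlapped. Single CpGs among them still separated the SPF libraries. At -393 bp mLN SPF had 0 to 25% and pLN SPF 28.6 to 50%, and at -159 bp they had 0% and 7.69 to 25%. In GF mice neither CpG separated the nodes. The boundary was taken from the end of the GF DMR, so the contrast of the stretches is a description.

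In the far downstream region the mean was higher in mLN at 46 of 46 CpGs in SPF and at 45 of 46 in GF mice, with levels that varied from CpG to CpG. At 7660 bp after the start of Nkx2-3 (position 43619985), the mLN libraries had 80.0 to 100% and the pLN libraries 0 to 14.3%. At 8013 bp (position 43620338), they had 66.7 to 85.7% and 0 to 5.88%. The difference was smaller close to the far end. At 8474 and 8480 bp the pLN libraries reached 61.5 to 90.0% and 50 to 100%, against 85.7 to 100% and 83.3 to 100% in mLN. At the last CpG, at 8602 bp, the libraries did not overlap, with 66.7 to 88.9% in mLN and 20 to 42.9% in pLN. At the other end, the first 9 CpGs, before the GF DMR, still had 54.9 to 69.0% in mLN and 10.2 to 18.7% in pLN, although the GF call did not include them.

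The near downstream region was the least even. On the side of Nkx2-3 it had 71.4 to 100% in mLN at 5384 bp after the start of the gene (position 43617709), against 20 to 44.4% in pLN. The 6 CpGs of the CG repeat, at 5501 to 5511 bp, had no value in replicate 2 of mLN GF and replicate 1 of pLN GF, and the one at 5509 bp was at 0% in the 8 other libraries. Over the 10 CpGs of this region with a value in every library, mLN had 48.9 to 70.7% and pLN 13.8 to 17.8%. The difference over these CpGs was 42.0 points in SPF and 39.8 points in GF mice. They leave out the repeat and also the CpGs at 5886 and 6018 bp, where mLN minus pLN in GF mice was -11.1 and 0 points. The GF value over the 10 CpGs therefore does not show the effect of the repeat alone.

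**Figure D3:**
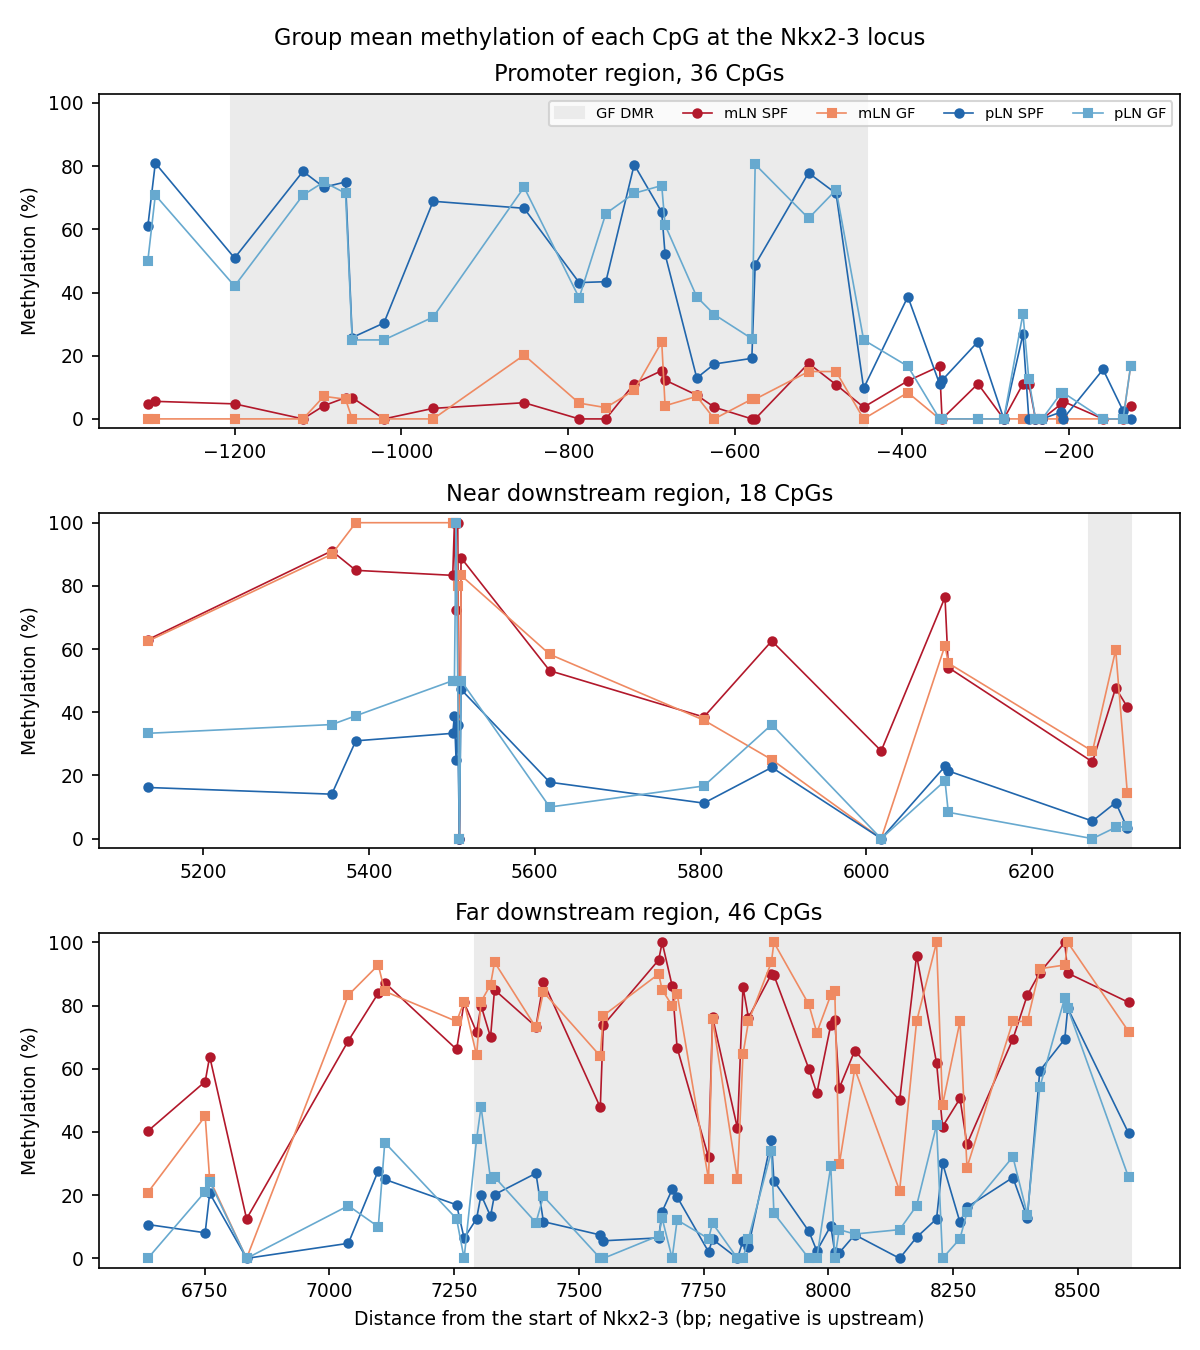
Group mean methylation in percent of each of the 100 CpGs against its distance in bp from the start of Nkx2-3, with 1 line for each of the 4 groups and the GF DMR of each region shaded. The mLN lines stay at or below 24.4% in the promoter region while the pLN lines reach 81.0%, the lines come together close to the gene, and at most CpGs of both downstream regions the mLN lines are above the pLN lines.

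Single CpGs were then tested in the libraries that had not been used for the call of the DMR in question. The 60 CpGs of the GF DMRs also lay in SPF DMRs, so they were in DMRs called in both sets of libraries. In the 4 GF libraries, 23 of the 100 CpGs passed (limma over all CpGs of the SPF DMRs, Benjamini-Hochberg adjusted p), 5 in the promoter region, 1 in the near and 17 in the far downstream region, where 16.1% of all CpGs of the SPF DMRs passed. The count rests on 2 libraries per node and did not hold in a fit without any 1 of the 4, for the members or for the whole list. Such a fit leaves 1 library in a group, so its counts are not given. In the 6 SPF libraries, 43 of the 60 CpGs of the GF DMRs passed, 14 of 20 in the promoter region, 0 of 3 in the near and 29 of 37 in the far downstream region, where 37.7% of all CpGs of the GF DMRs passed. On a logit scale 23 of the 60 passed, where 1647 of all 15173 CpGs of the GF DMRs passed.

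Counted by overlap of the libraries, 67 of the 91 CpGs with a value in each GF library had mLN and pLN values that did not overlap, against 66.7% of all such CpGs of the SPF DMRs. Among these were 20 of 36 in the promoter region, each lower in mLN, and 9 of 10 in the near and 38 of 45 in the far downstream region, each higher in mLN. In the SPF libraries, 48 of the 60 CpGs of the GF DMRs did not overlap, against 49.1% of all. In the promoter region 16 of 20 were lower in mLN, and in the far downstream region 31 of 37 were higher. Over all 10 libraries at once, 16 of 36 CpGs of the promoter region had every mLN library below every pLN library, against 15.1% of all CpGs of location DMRs with a value in each library. Every mLN library was above every pLN library at 5 of 10 CpGs of the near and 30 of 45 of the far downstream region, against 18.4% of all. Both shares are over CpGs of DMRs of either direction, while each region had been called for its own direction. The 10 libraries also include those used for the calls, so the counts over all 10 are descriptions.

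Differences at single CpGs were set side by side between housing conditions. Across the 100 CpGs, the difference mLN minus pLN in SPF and in GF mice had a Pearson's r of 0.92, which mostly reflects the opposite signs of the regions. Within a region it was 0.88 over the 36 CpGs of the promoter region, 0.65 over the 46 of the far and 0.49 over the 18 of the near downstream region. CpGs of a region share reads and neighbours and are not independent, so these values are descriptions.

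**Figure D4:**
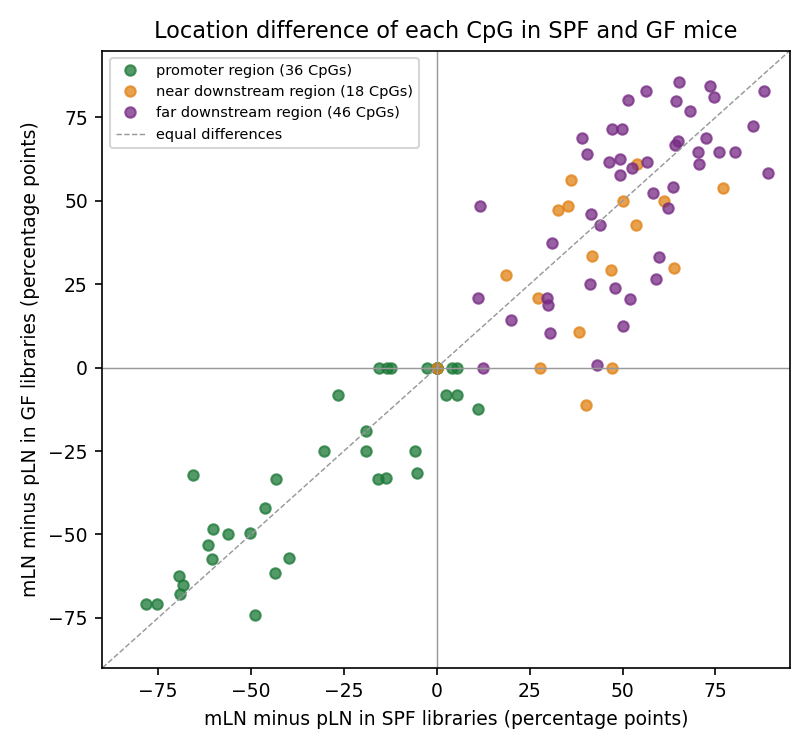
Difference in methylation, mLN minus pLN in percentage points, of each of the 100 CpGs in SPF libraries (x axis) and GF libraries (y axis), coloured by region, with a dashed line of equal differences. Points of the promoter region lie in the lower left or near 0, and those of the downstream regions in the upper right or near 0, with 1 CpG of the near downstream region below 0 in GF libraries.

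Microbiota were the other factor of the study, and no effect of housing was detected at the 3 regions (model with location and housing over all 10 libraries, limma). SPF minus GF was 0.72 points in the promoter region (95% interval -5.33 to 6.77, limma adjusted p = 0.993). It was 0.19 points in the near downstream region (95% interval -8.13 to 8.51) and -0.38 points in the far downstream region (95% interval -7.02 to 6.27), each with a limma adjusted p of 0.997. None of the 1602 regions passed this test, 0%, while 72 had an unadjusted p under 0.05, none of the 3 among them. The intervals leave room for a housing effect of up to 8.51 points.

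The difference between mLN and pLN was also of like size in both housing conditions. It was -30.20 points in SPF and -31.27 points in GF mice in the promoter region, and 53.40 and 52.31 points in the far downstream region. In the near downstream region it was 41.75 and 33.99 points. The interaction, the SPF difference minus the GF difference, was 1.07 points (95% interval -11.4 to 13.6), 7.76 points (95% interval -8.80 to 24.3) and 1.09 points (95% interval -12.7 to 14.8) in the promoter, near and far downstream regions. No interaction passed at the 3 regions or at any of the 1602, 0%, with 141 at an unadjusted p under 0.05 and limma adjusted p-values of 0.956, 0.764 and 0.956 for the 3. These intervals are wide and leave room for interactions of the sizes within them.

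Of the 100 CpGs, 0 passed a test of housing (limma over 24158 CpGs, of which 0% passed and 1296 had an unadjusted p under 0.05), and 3 had an unadjusted p under 0.05. One was at -576 bp, with 48.8% in pLN SPF, 80.6% in pLN GF, 0% in mLN SPF and 6.25% in mLN GF (limma adjusted p = 0.896). The others were a CpG of the repeat, at 5505 bp, whose GF values rest on 1 library per node, and the first CpG of the far downstream region.

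The DMRs around the members were taken next. Within 1 Mb of the start of Nkx2-3 the tables held 11 other regions, with 18 DMRs, and each lay upstream, between -100507 and -6552 bp. Of these, 9 were nearest to the long non-coding RNA gene Gm20467 and were more methylated in mLN in both housing conditions. The other 2, nearest to Got1, which encodes a cytosolic aspartate aminotransferase, were less methylated in mLN, with differences of -19.97 and -29.04 points in SPF and -33.37 and -40.59 points in GF mice. In the libraries not used for the call, 9 of the 10 SPF DMRs and each of the 8 GF DMRs passed (limma, where 89.0% and 82.4% of the lists passed).

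Larger differences lay within the last stretch before the gene. The region chr19:43600519-43601677, with 59 CpGs, averaged 72.0% (SD 6.40, n = 3) for mLN SPF against 6.33% (SD 0.668, n = 3) for pLN SPF. In GF mice it averaged 76.4% (SD 5.49, n = 2) for mLN against 8.97% (SD 1.35, n = 2) for pLN. The region chr19:43601952-43602821, with 17 CpGs, differed by 69.01 points in SPF and 73.60 points in GF mice. The last region before the promoter region, chr19:43605103-43605773 with 9 CpGs, differed by 56.69 and 68.89 points. The promoter region of Nkx2-3, with differences of -30.20 and -31.27 points, lay between regions with the opposite direction, 5247 bp upstream and 5258 bp downstream of it.

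**Figure D5:**
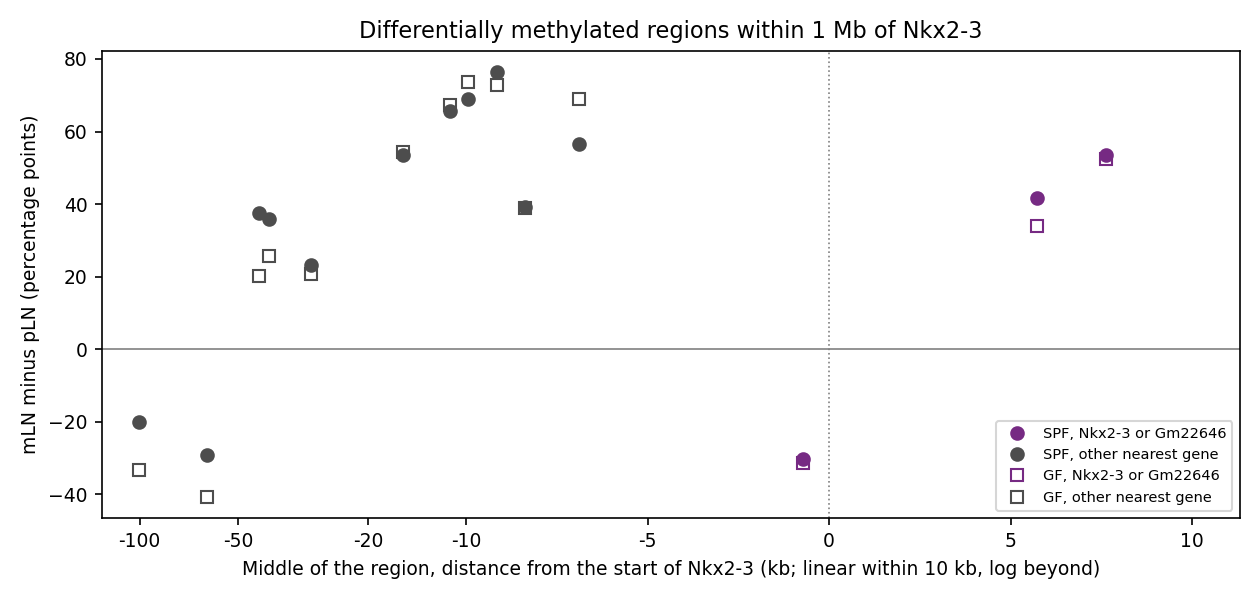
Difference in methylation, mLN minus pLN in percentage points, of the 14 regions within 1 Mb of Nkx2-3 against the distance of their middle from its start in kb (linear within 10 kb, logarithmic beyond), with filled circles for SPF and open squares for GF libraries. The promoter region is below 0 between regions above 0, and the 2 regions farthest upstream, near Got1, are also below 0.

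Reversals over a short distance were counted in the whole series. Among 346 pairs of neighbouring regions at most 10 kb apart, 21 pairs (6.07%) had opposite signs of the mean location difference. Ranked by the smaller of the 2 absolute differences, the promoter region and the near downstream region had rank 2, with -30.73 and 37.87 points. The promoter region and its upstream neighbour had rank 3, with -30.73 and 62.79 points. Both pairs are more than 5 kb apart, and within 5 kb there were 17 opposite pairs and 0 at this locus. Rank 1 was on chromosome 1 beside Hlx, a homeobox gene of gut and spleen mesenchyme, where chr1:184720001-184720979 differed by 32.91 points and chr1:184724110-184724415 by -63.23 points. A sign is a description here, as every region in the ranking had been called for its difference.

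Related genes were counted in 3 lists. The share of all genes with a location DMR was not computed, so the number of genes with one in each list is a description. Of 27 NK-class homeobox genes, 4 had a location DMR, which were Nkx2-3, Nkx3-2, Nkx1-1 and Msx1. Of the 6 SPF DMRs of this list, 4 were called higher in mLN and 1 lower in GF libraries, and of its 7 GF DMRs, 5 were called higher and 1 lower in SPF libraries (limma). Called were thus 5 of 6 and 6 of 7, near the 89.0% and 82.4% of the whole tables, in which 408 SPF DMRs were called higher and 309 lower, and 519 GF DMRs higher and 547 lower. The DMRs called lower were those of the Nkx2-3 promoter region. The median absolute difference in the list was 27.5 points for SPF and 30.1 points for GF DMRs, beside 30.7 and 26.4 points over the whole tables. A DMR of Nkx3-2, a homeobox gene of spleen and axial mesenchyme, went the other way from the Nkx2-3 promoter region. It differed by 41.61 points (SE 6.37, limma adjusted p = 0.000207) at chr5:41760504-41760521, 3974 bp from the start of Nkx3-2. That is the direction of the downstream regions, which were assigned to Gm22646. A DMR nearest to Nkx1-1, 77138 bp from its start, differed by 30.14 points (SE 4.53, limma adjusted p = 0.000183). One nearest to Msx1, 94969 bp from its start, differed by -8.97 points (SE 4.73, limma adjusted p = 0.1) and did not pass.

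Of 20 transcription factor genes of spleen and gut mesenchyme, 9 had a location DMR. In the libraries not used for the call, 19 of 29 SPF DMRs were called higher and 7 lower in mLN, and 19 of 27 GF DMRs were called higher and 7 lower, with median absolute differences of 34.8 and 35.8 points. That is 26 of 29 and 26 of 27 called, beside 89.0% and 82.4% of the whole tables. The largest per gene were -70.99 points for Hlx, 57.02 points for Wt1, 53.96 points for Isl1 and 50.52 points for Tcf21, each with an SE of at most 5.30 points. These DMRs lay 8035, 2113, 7505 and 22028 bp from the starts of these genes. Wt1, Isl1 and Tcf21 encode transcription factors of developing mesenchymal organs. Of 18 lymphoid tissue organisers and homing molecules, 2 had a location DMR. They were Cxcl13, the B cell attracting chemokine, with 22.89 points (SE 6.51, limma adjusted p = 0.0156), and Tnfsf11, the cytokine RANKL, with -27.99 points (SE 8.77, limma adjusted p = 0.0128). Over this list, 1 of 1 SPF DMR was called higher and 2 of 2 GF DMRs were called lower, where 89.0% and 82.4% of the whole tables were called in either direction. Madcam1, the gene of the address molecule named above, was in this list and had no location DMR.

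The regions most like the members were found by the root mean square difference over the 10 libraries among 1311 other regions with at least 5 CpGs. Nearest to the promoter region were one near En1 at 1.57 points, one near Gm14205 at 5.78 points and one near Tbx5 at 5.80 points. The region near En1, chr1:120591004-120591640 with 12 CpGs, had 4.82% in mLN SPF, 4.23% in mLN GF, 34.5% in pLN SPF and 36.5% in pLN GF. Among those most like the near downstream region were regions near Rnf220 (4.83 points) and Pcsk5 (4.84 points), and nearest to the far downstream region were regions near Mgat4c (5.35 points), Setmar (5.47 points) and Slc25a48 (5.74 points). En1 and Tbx5 encode transcription factors of embryonic patterning. By Pearson's correlation in place of this distance, only 1 of the 9 would be named.

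The 3 regions differed in base composition. GC content was 51.5% in the promoter, 47.6% in the near and 51.8% in the far downstream region, beside a median of 46.5% over the 1602 regions. The observed over expected CpG ratio was 0.46, 0.27 and 0.35, beside a median of 0.41. The NK2 binding motif TNAAGTG, searched on both strands, was found once in the promoter region, within the first stretch printed above, 4 times in the near and 0 times in the far downstream region. Of windows of the same length centred on the 1602 regions, 51.4%, 51.4% and 68.3% held it, so a match is common at these lengths.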

How the data were processed

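Whole-genome bisulfite libraries were, per the study's methods, aligned by the authors to GRCm38 with BSMAP (2.4.3 in the submitters' processing notes), filtered to unique, properly paired and de-duplicated reads, smoothed with bsseq and searched for DMRs by quantile limits on the t-statistic. The deposited CpG table holds unsmoothed methylation as a fraction from 0 to 1 for each library, without coverage; restriction to DMRs and the coverage filter limit which CpGs can be seen. The deposited tables' smoothed means, differences and areaStat values were not used.

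Fractions were turned into percent (times 100), and their mean was taken per DMR and per merged region, of which there were 1602, from the 24158 CpGs that no group lacked entirely. Tests used limma 3.58.1 in R 4.3.3 across all features on the percent scale, with Benjamini-Hochberg adjusted p under 0.05, or exact two-sided permutation over libraries (scipy 1.17.1). The limma steps were tested on simulated data. Libraries of a group agreed in 11.4 to 14.2% of CpGs exactly, so each counted as a replicate; the labels do not say whether they are separate animals or pools, so p-values measure the spread between these libraries. All 24182 CpG positions read CG in GRCm38. Named were all member DMRs and CpGs, other regions within 1 Mb, up to 4 genes a list by the largest difference in the libraries not used for the call, the 3 most alike regions of each member region (1 of the 9 is not reported here), and the 3 strongest opposite neighbours. The members and lists were chosen with earlier results of these data known. Alternatives covered the mean over CpGs, missing values, scale, list limits, the replicate block and leaving out each library.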

Additional observations from a re-analysis of the deposited data

How the results depend on the processing

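In the libraries not used for the call, each of the 6 DMRs also passed with CpGs measured in all 10 libraries, on the logit scale, with a mean-variance trend and with the replicate block. With the median over CpGs, 5 passed. A list limit of at least 5 CpGs left 5 DMRs in the lists and a limit of 35 points in the calling libraries left 4, and each of those passed; the second limit was chosen after seeing the data in place of the planned limit on the authors' smoothed difference, which was not run because that column was not used. Leaving out 1 library gave 5 to 6. The DMR lost was each time the GF DMR of the near downstream region, whose difference ranged from 16.42 to 45.88 points.

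Replicate numbers did not pair the libraries (correlation of same-numbered deviations -0.037 to 0.032). With the replicate block, 0 of the member CpGs passed in the GF libraries (41 of 93 at an unadjusted p under 0.05), against 23. Over the whole list 0 of 15354 CpGs passed there. In the SPF libraries 39 member CpGs passed, against 43, beside 4660 of 15172 over the whole list. The block changed no other call at the members. Leaving out 1 GF library leaves 1 library in a group, and the calls in the GF libraries did not hold, for the members or for the whole list. Leaving out 1 SPF library gave 34 to 41 member CpGs, beside 3762 to 4764 over the whole list. The logit scale gave 23 member CpGs in the SPF libraries. Over the whole list it gave 1647 of 15173, against 5718 on the percent scale. The cause was not tested.

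Housing stayed at 0 calls at the member regions and CpGs and the interaction at 0 calls at the member regions in every alternative run, and some of their small estimates changed sign. For housing, the median over CpGs gave -0.17 points in the promoter region and -1.97 points in the near downstream region, where CpGs measured in all 10 libraries gave -0.32 points and the logit scale -0.018 log-odds. For the interaction, the median over CpGs gave -3.80 points in the far downstream region. Leaving out 1 library moved housing from -0.28 to 1.71 points, from -1.96 to 3.12 points and from -1.67 to 0.66 points in the promoter, near and far downstream regions, and the interaction from -0.997 to 3.38 points and from -1.94 to 4.12 points in the promoter and far downstream regions. In the near downstream region the interaction kept its sign, from 2.46 points without replicate 2 of pLN GF to 13.06 points without replicate 1 of pLN GF.

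Opposite neighbours numbered 32 within 20 kb and 6 among regions that differed by at least 20 points, against 21, and 17 within 5 kb, 0 of them at this locus. Of the 9 most alike regions, 1 was shared with the ranking by Pearson's correlation.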
